A study of Mus musculus with 2 samples.

Results

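In the control uterus, 555 stromal cells with the most Adarb2, Rorb and Angptl7 RNA for their depth were described. They made up 16.6% of the 3340 control stromal cells and 12.4% of the 4462 control cells kept. The cells were chosen by percentiles over control stroma, so the share of 16.6% was largely set by that choice. Both libraries of the study together held 7413 kept cells. The study profiled dissociated mouse uteri on gestational day 3.5 by single-cell RNA sequencing, in 2 libraries, 1 per genotype. The control carried floxed alleles of Mig-6 (genotype Mig-6f/f) and no Cre, and the library labelled knockout carried the same floxed alleles with Cre inserted at the progesterone receptor locus (genotype Pgrcre/+Mig-6f/f). Mig-6 is the product of Errfi1, a feedback inhibitor of the EGF receptor. Both genotypes share the floxed alleles, and Pgr-driven Cre acts only where Pgr has been expressed. The strain, the age of the females, the number of animals pooled and the deleted part of Errfi1 are not given in the sources used here. Each genotype was sequenced as 1 library without replicates, which allows no test, and every interval given covers counting error only.

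A cell was stromal if Dcn, Col1a2, Col3a1, Col6a2, Pdgfra and Hsd11b2 together gave at least 10 of every 10000 UMIs (unique molecular identifiers, 1 per captured transcript). The epithelial genes Epcam, Krt8, Krt18 and Cldn7 had to stay under 5, and the muscle genes Actg2, Cnn1, Myh11 and Des under 20, on the same scale. The score was the sum of Adarb2, Rorb and Angptl7 per 10000 UMIs, and its 75th percentile in control stroma, the limit used, was 12.61. Of the 835 stromal cells at or above that limit, 198 (23.7%) were left out for lying above the 75th percentile by Robo2, Hoxa11os, Gria4 and Slc6a2, and 89 (10.7%) for lying above the 90th percentile by Dpt, Igfbp6 and Lum, with 7 in both. The remaining 555 are called the chosen cells. The cells left out are called the cells high for both scores (191) and, with all other cells high for Dpt, Igfbp6 and Lum, the Dpt type (334). A further 621 cells formed the Robo2 type, and 1639 cells in none of these classes are called the other stroma.

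Uterine stroma is the fibroblast layer between the epithelium and the muscle. Before the embryo attaches, progesterone acts on these cells through its receptor, Hedgehog ligands from the epithelium act on them through Ptch1, and after attachment they turn into decidual cells. Adarb2 encodes a member of the ADAR family, an RNA-binding protein best known from brain for which no editing activity has been shown. Rorb encodes a nuclear receptor of the retinoic acid related orphan group, known from retina and cortex. Angptl7 encodes a secreted angiopoietin-like protein known from cornea and other matrix-rich tissues of the eye.

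The promoters of the 3 score genes are shown because these genes define the cells, and that of Bmper because it was among the genes with the clearest difference outside the score. Each run gives 250 bases before to 50 bases after an annotated start, read 5′ to 3′ on the gene's strand, from RefSeq on build GRCm38.p6. The build named for the deposited counts is mm39, so the coordinates belong to the RefSeq table only. Adarb2 lies at chr13:8202616-8202915 on the plus strand, Angptl7 at chr4:148500413-148500712 on the minus strand and Bmper at chr9:23222826-23223125 on the plus strand. Of 2 entries for Rorb, both on the minus strand, the upstream one at chr19:19111147-19111446 is printed. Capitals mark the CCAAT box (CCAAT, or ATTGG on the other strand) and the GC box (GGGCGG, or CCGCCC).
Adarb2: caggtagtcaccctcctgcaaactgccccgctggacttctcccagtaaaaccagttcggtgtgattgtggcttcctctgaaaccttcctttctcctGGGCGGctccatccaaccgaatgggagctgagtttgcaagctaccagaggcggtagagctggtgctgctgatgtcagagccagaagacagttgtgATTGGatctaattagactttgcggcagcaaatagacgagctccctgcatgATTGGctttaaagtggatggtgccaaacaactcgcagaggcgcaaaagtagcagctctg
Rorb: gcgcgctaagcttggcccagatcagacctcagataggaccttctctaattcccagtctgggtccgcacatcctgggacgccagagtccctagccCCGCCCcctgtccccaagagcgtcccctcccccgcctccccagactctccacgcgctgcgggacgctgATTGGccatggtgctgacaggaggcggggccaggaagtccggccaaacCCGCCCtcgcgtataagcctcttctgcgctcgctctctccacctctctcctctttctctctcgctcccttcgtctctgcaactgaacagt
Angptl7: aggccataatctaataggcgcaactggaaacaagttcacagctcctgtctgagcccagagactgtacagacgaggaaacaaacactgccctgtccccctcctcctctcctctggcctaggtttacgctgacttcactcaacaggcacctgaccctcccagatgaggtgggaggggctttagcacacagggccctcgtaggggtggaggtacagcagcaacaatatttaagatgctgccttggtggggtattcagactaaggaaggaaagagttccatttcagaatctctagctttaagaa
Bmper: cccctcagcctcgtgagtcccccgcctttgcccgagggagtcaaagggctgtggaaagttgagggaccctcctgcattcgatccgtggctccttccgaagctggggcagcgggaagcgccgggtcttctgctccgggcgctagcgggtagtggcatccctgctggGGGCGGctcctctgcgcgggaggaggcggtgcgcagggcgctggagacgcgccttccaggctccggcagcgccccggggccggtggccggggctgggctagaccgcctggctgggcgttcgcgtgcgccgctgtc

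The window of Bmper had the highest share of G and C (72.7%), against 63.7% for Rorb, 52.7% for Adarb2 and 51.3% for Angptl7. In all, 8 motifs were searched on both strands. The Adarb2 window held 2 CCAAT boxes and 1 GC box, that of Rorb 1 CCAAT box and 2 GC boxes, that of Bmper 1 GC box, and that of Angptl7 no match. Of 32851 RefSeq promoters of the same length, 37.4% held a CCAAT box and 35.7% a GC box. The other 6 motifs had no match in the printed windows or in the other Rorb window. The nuclear receptor half-site AGGTCA occurred in 16.3% of all promoters and the steroid receptor half-site AGAACA in 19.0%. The AP-1 site TGACTCA occurred in 5.20% and the TATA box, searched as TATAAA, in 13.6%. The E-box, searched as CACGTG, occurred in 7.15% and the GATA site, searched as AGATAA, in 11.2%. The AP-1 site, the CCAAT box and the GC box were added after the other motifs had given no match. No printed motif was shared by the windows of all 3 score genes.

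The control library held 44871170 UMIs over 4627 barcodes and the library labelled knockout 23317904 UMIs over 3118 barcodes. After cells with under 500 genes or over 15% mitochondrial UMIs were left out, the kept cells had medians of 9252 and 4968 UMIs. The libraries shared 3 cell barcodes. Levels are given in CPM, the UMIs of a gene per 1000000 summed UMIs of a class. Stromal Errfi1 was at 193 CPM in control cells but at 741 CPM in the library labelled knockout, so RNA of the targeted gene was higher under that label. The deleted part of Errfi1 is not given, so this level cannot show whether the label is right. The chosen cells had a median of 9432 UMIs and 3087 genes, and the other stroma 8956 UMIs and 2946 genes. Median mitochondrial shares were 3.27% in the chosen cells, 3.58% in the other stroma and 4.20% in the Robo2 type.

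The rule required the stromal genes and capped 4 epithelial and 4 muscle genes, so their levels describe the rule. The 4 muscle genes gave 382 CPM in the chosen cells and 402 CPM in the other stroma. The 6 stromal genes had a median sum of 68.5 per 10000 UMIs in the chosen cells and 64.3 in the other stroma. Dcn, a small matrix proteoglycan, was 1679 CPM in the chosen cells, and Pdgfra, a fibroblast receptor, was 187 CPM. The 8 epithelial markers, 4 of them used by the rule, gave 15.8 CPM with a median of 0 per cell. Of markers that the rule did not use, the 5 endothelial ones gave 37.0 CPM with Cldn5 at 0 (46.8 CPM in the other stroma), the 6 immune markers 1.86 CPM with Ptprc and Cd52 at 0, and the 4 mesothelial markers 1.30 CPM with Upk3b and Lrrn4 at 0. All 4 hemoglobin genes were at 0. The 6 pericyte markers gave 10.4 CPM in the chosen cells and 68.8 CPM in the other stroma, which touches the lower genes described further on.

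The score formed 1 continuous range with no gap at the limit. It ran from 0 to 137 over control stroma, with a median of 6.72, a 10th percentile of 0.89 and a 90th percentile of 20.2, and 297 cells were at 0. The chosen cells ran from 12.62 through a median of 18.0 to 137. The 5 chosen cells nearest the limit scored 12.62, 12.62, 12.62, 12.64 and 12.64, and the 5 cells of the other stroma nearest to it 12.61, 12.59, 12.58, 12.55 and 12.55. Within 10% of the limit lay 73 chosen cells above it and 100 cells of the other stroma below it. The class is therefore an upper part of the range of this score. Counting noise in a score from few UMIs per cell can fill a gap, so this range cannot show whether a separate type exists.

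**Figure D1:**
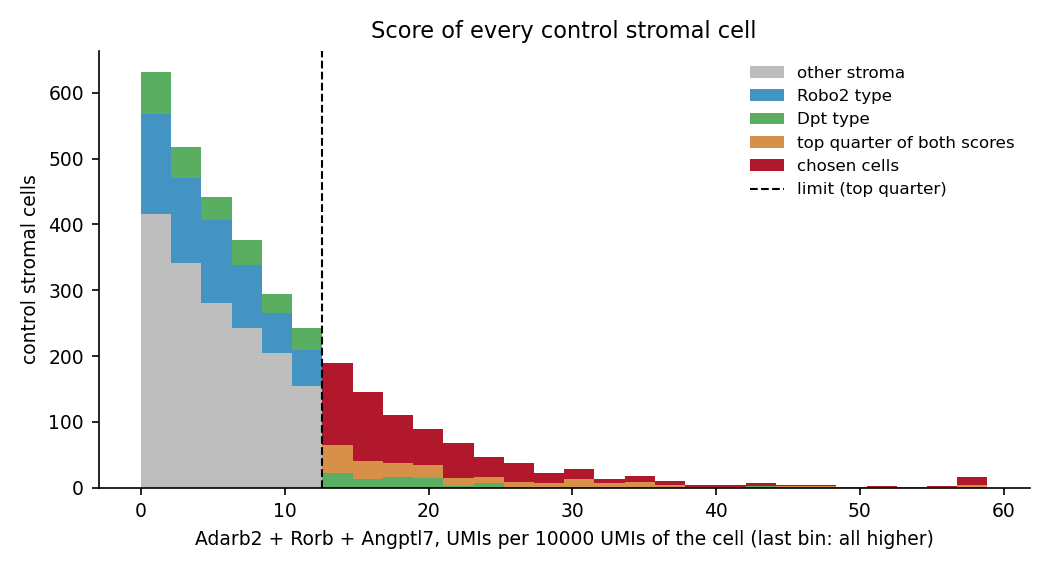
Number of control stromal cells (vertical axis) by score, the UMIs of Adarb2, Rorb and Angptl7 per 10000 UMIs of the cell (horizontal axis), stacked by class, with the limit of 12.61 as a dashed line. The counts show no break at the limit, and the 555 chosen cells form the upper tail less the cells left out.

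Adarb2, Rorb and Angptl7 chose the cells, so their levels are a description. Adarb2 was 793 CPM in the chosen cells and 127 CPM in the other stroma, Rorb 800.2 and 259 CPM, and Angptl7 511 and 142 CPM. In the Robo2 type the same genes were at 118, 316 and 80.9 CPM, so Rorb was above and Angptl7 below the other stroma there. The Dpt type, in which 89 of 334 cells were at or above the limit, had 295 CPM Adarb2, 283 CPM Rorb and 382 CPM Angptl7. The cells high for both scores had 781, 857 and 483 CPM, close to the chosen cells.

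Rorb was the most widely detected of the 3, with a UMI in 91.7% of the chosen cells and 74.6% of the other stroma. Adarb2 was detected in 80.0% and 38.9%, and Angptl7 in 69.9% and 38.9%. In 728 epithelial cells of the same library, with a deeper median of 11690.5 UMIs, the shares were 1.10% for Adarb2, 2.06% for Rorb and 2.06% for Angptl7. The stromal shares lay far above these epithelial shares in every class. The epithelial cells were set apart from stroma by marker genes, so their shares may understate free RNA from stroma. The part of free RNA in the stromal shares was not tested. Single cells carried up to 152 UMIs of Rorb, 60 of Adarb2 and 35 of Angptl7.

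**Figure D2:**
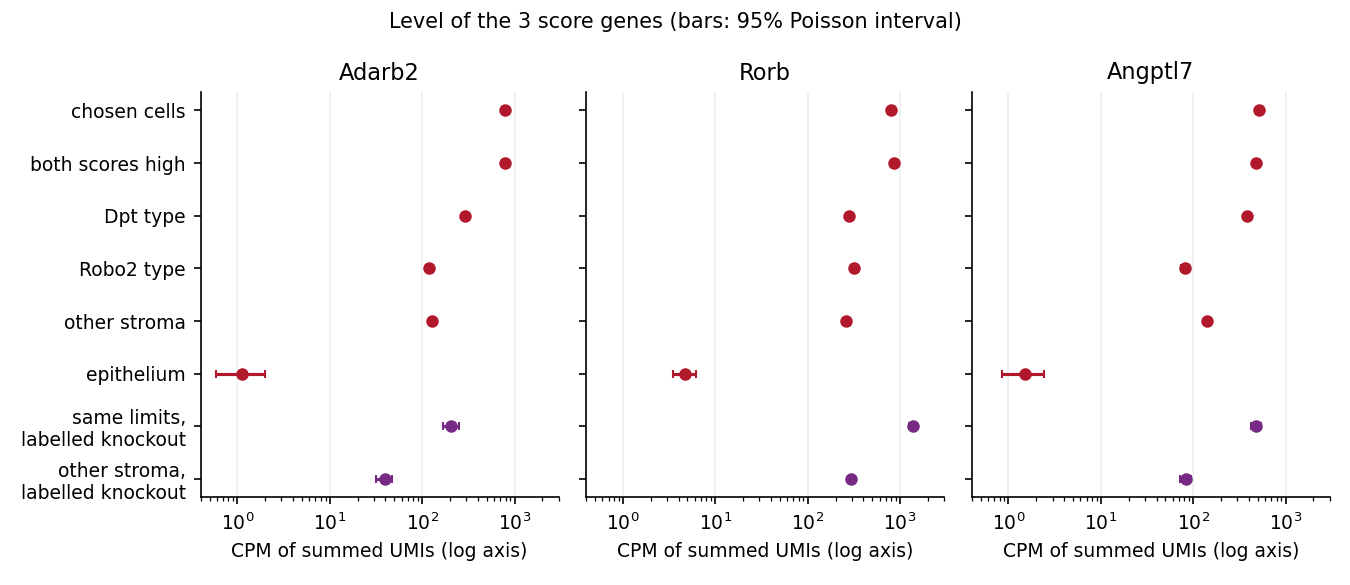
Level of Adarb2, Rorb and Angptl7 in CPM of summed UMIs (log axis) by class, with control classes in red, classes of the library labelled knockout in purple and exact Poisson 95% intervals as bars. All 3 genes lie near 1 to 5 CPM in epithelium and above 80 CPM in every control stromal class, and Adarb2 is lower in the purple classes than in their control counterparts.

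A high score could come from any of the 3 genes. All 3 were detected in 282 chosen cells (50.8%), 2 of them in 222 (40.0%) and 1 of them in 51 (9.19%). Adarb2 with Rorb but not Angptl7 was the commonest pair, in 118 cells. By the gene with the most UMIs in a cell, 224 chosen cells (40.4%) were led by Adarb2, 177 (31.9%) by Rorb and 138 (24.9%) by Angptl7, and 16 were tied.

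The 3 genes went together only in part. When the cells above the 75th percentile were drawn on Rorb and Angptl7 alone, with the same cells left out by their other scores, Adarb2 was 408 CPM in the 537 cells drawn and 264 CPM in the other stroma, a ratio of 1.54 (1.46 to 1.63). Rorb, in 553 cells drawn on the other two genes, was 434 against 388 CPM, a ratio of 1.12 (1.07 to 1.18). Angptl7, in 545 cells drawn likewise, was 268 against 227 CPM, a ratio of 1.18 (1.11 to 1.25). The cells drawn without Adarb2, Rorb or Angptl7 held 388, 417 and 426 of the chosen cells. The label of Adarb2, Rorb and Angptl7 high stroma therefore covers cells high in 1, 2 or 3 genes that tracked each other weakly.

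Against the other stroma, few genes differed. Of 8408 genes with at least 10 CPM averaged over both classes, 77 (0.916% of those tested) were at least 1.5-fold higher in the chosen cells, the 3 score genes included, and 42 (0.5%) were at least 1.5-fold lower. The median log2 ratio over all tested genes was 0.01. When the cells were chosen on one random part of each cell's UMIs and levels were read from the remaining part, 135 genes were higher and 98 lower, with 40 of the 77 and 26 of the 42 among them.

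Bmper, which encodes a secreted protein that binds and modulates BMPs, was 101 CPM in the chosen cells and 56.5 CPM in the other stroma, a ratio of 1.80 (1.61 to 2.001), and was detected in 45.0% and 28.6% of cells. Arhgef28, a guanine nucleotide exchange factor, was 60.1 and 31.0 CPM, a ratio of 1.94 (1.68 to 2.24). Both ratios were nearly as large in UMIs not used to choose the cells, at 1.81 for Bmper and 1.82 for Arhgef28. Hs3st4, which adds sulfate to heparan sulfate, had the highest ratio of the named genes, 2.70 (1.99 to 3.65), from 88 UMIs in 35 chosen cells, but had a ratio of 1.82 in UMIs not used to choose the cells and of 0.97 with every cell thinned to 2000 UMIs.

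Of the remaining genes named as higher in the chosen cells, Ppfia2, a liprin scaffold of presynaptic sites, was the most abundant, at 376 CPM there and 250 CPM in the other stroma (ratio 1.51, 1.43 to 1.59). Pcdh9, a protocadherin, was 129 and 81.3 CPM (1.59), Grid1, a glutamate receptor of the delta group, 91.4 and 56.9 CPM (1.60), and Fam155a, a subunit of a sodium leak channel, 111 and 66.5 CPM (1.66). Lin7a, a PDZ scaffold, was 94.1 and 50.3 CPM (1.87), with 77 of its 506 UMIs in 1 chosen cell and a ratio of 1.59 without that cell.

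Antxr2, a receptor for collagen type VI and laminin, was 187 CPM in the chosen cells and 121 CPM in the other stroma (1.55), and had a UMI in 71.2% and 56.8% of cells. Acss3, a mitochondrial acyl-CoA synthetase, was 106 and 67.7 CPM (1.56), and Fhit, a dinucleotide hydrolase, 118 and 76.0 CPM (1.55). Ppp2r2b, a regulatory subunit of protein phosphatase 2A, was 18.8 and 8.94 CPM (2.10), and Frk, a Src-related kinase, 24.6 and 13.9 CPM (1.77). Arhgef6, an exchange factor for Rac and Cdc42, was 16.9 and 8.68 CPM (1.95), but 1 cell held 34.1% of its UMIs and the ratio without it was 1.29.

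Hhip, a Hedgehog-binding protein that is itself a target of the pathway, was 20.8 CPM in the chosen cells and 10.3 CPM in the other stroma (2.02, 1.57 to 2.59). The other genes of the Hedgehog and stromal progesterone list differed less. Ptch1, the Hedgehog receptor and a target, was 137 and 102 CPM (1.34), Gli1, a transcription factor and target, 35.5 and 28.1 CPM (1.27), and Fkbp5, a chaperone that steroid receptors induce, 68.5 and 50.1 CPM (1.37). Hand2, a progesterone target, was 98.6 and 89.2 CPM (1.11). Of the steroid receptors, Pgr was 236 and 222 CPM (1.06) and Esr1, the estrogen receptor, 674 and 610 CPM (1.11). Of the 15 genes of that list tested, Hhip was the 1 past 1.5-fold higher and 0 were lower. Over all tested genes 0.916% were higher and 0.5% lower. The list had a median log2 ratio of 0.24 against 0.01 over all genes. Il13ra2, an interleukin receptor, was the lowest, at 36.3 and 48.8 CPM (0.74).

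**Figure D3:**
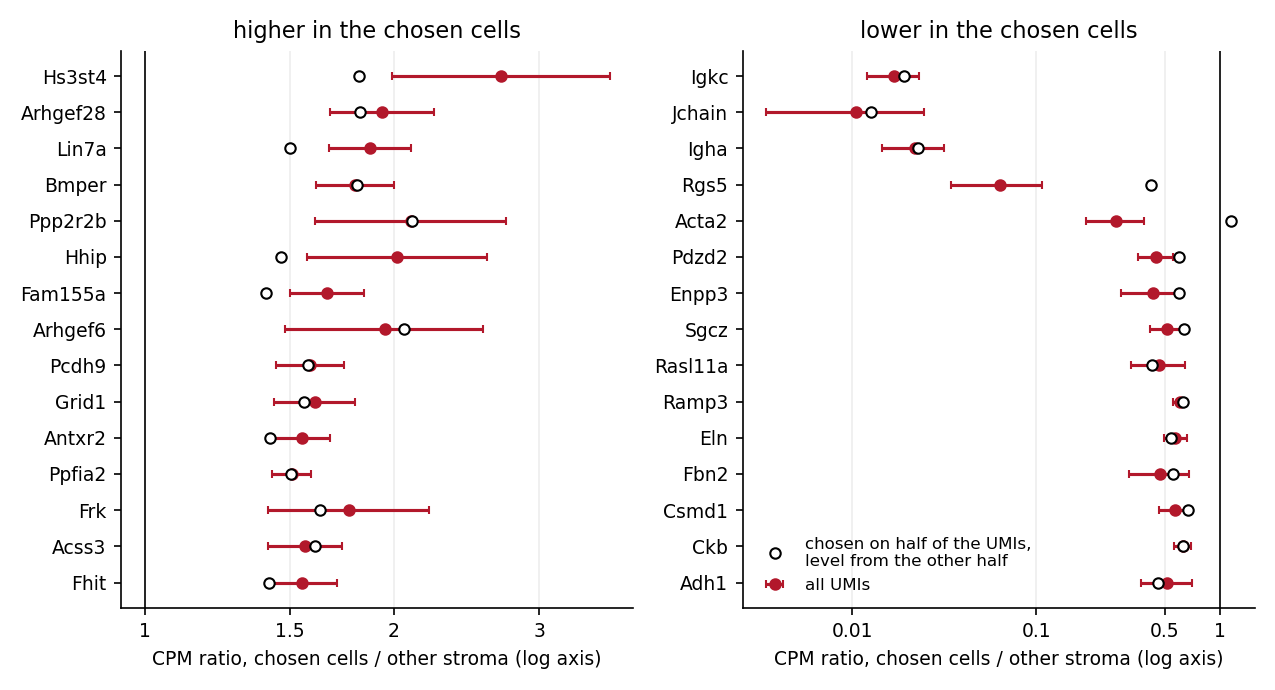
Ratio of CPM in the chosen cells to CPM in the other stroma (log axes) for the 15 genes higher and the 15 lower by the ranking used, with red points and exact 95% counting intervals from all UMIs, and open points for cells chosen on one part of the UMIs with levels from the remaining part. Most open points lie near the red ones, while those of Hs3st4, Lin7a, Hhip, Rgs5 and Acta2 are nearer to 1 or beyond it.

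The largest folds among the named lower genes were those of the antibody genes and Rgs5. The antibody genes Igkc, Jchain and Igha were 59.1-fold, 95.3-fold and 45.8-fold lower in the chosen cells, Rgs5, a pericyte marker, 15.8-fold lower, and Acta2, smooth muscle actin, 3.67-fold lower. A single cell of the other stroma held 60.4% of the Igkc, 62.5% of the Jchain and 68.1% of the Igha UMIs of that class. Acta2 had a UMI in 95 cells of the other stroma and was 3.19-fold lower without the cell that held most of it. Without the 49 cells of cluster 6 and the 15 of cluster 7, described further on, the ratios of Igkc, Igha, Rgs5, Jchain and Acta2 were 1.07, 1.08, 1.39, 0.87 and 0.54, and 25 genes in place of 42 were lower. Cluster 6 held 46 cells of the other stroma, while all 15 cells of cluster 7 were of the Dpt type and enter neither side. The setting without these clusters was chosen after the data were seen.

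Among the other lower genes, Ramp3, Ckb and Eln were the most widely detected. Ramp3, a partner of the receptor for adrenomedullin, was 124 CPM in the chosen cells and 205 CPM in the other stroma, a ratio of 0.60 (0.56 to 0.66), with a UMI in 44.7% and 54.5% of cells. Ckb, the brain form of creatine kinase, was 82.2 and 131 CPM (0.63), and Eln, elastin, 43.4 and 75.9 CPM (0.57). Pdzd2 was 19.0 and 42.4 CPM (0.45), but 1.09 when Adarb2 was left out of the score. Fbn2, a fibrillin, was 6.51 and 13.8 CPM (0.47), Enpp3, an ectonucleotidase, 6.14 and 14.2 CPM (0.43), Adh1, an alcohol dehydrogenase, 9.12 and 17.7 CPM (0.52), and Rasl11a 8.001 and 17.2 CPM (0.46). Fbn2, Enpp3 and Rasl11a each had a UMI in fewer cells, 8.11%, 6.59% and 7.99% of the other stroma. Sgcz, a sarcoglycan, was 19.4 and 37.5 CPM (0.52) but 1.14 in cells thinned to 2000 UMIs, and Csmd1 was 23.1 and 40.3 CPM (0.57). Of 32 matrix glycoprotein and proteoglycan genes tested, Eln and Fbn2 were the 2 that were lower, 0 were higher, and the median log2 ratio was 0.07. The shares over all tested genes were 0.5% lower and 0.916% higher.

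Most pathway lists lay near the level of all genes, for which the median log2 ratio was 0.01, with 0.916% higher and 0.5% lower. None of 15 nuclear receptors other than Rorb was past 1.5-fold, with a median log2 ratio of 0.11, and Rora, the closest relative of Rorb tested, was 342 and 296 CPM (1.16). Of 3 RNA editing enzymes tested, Adarb1 was 18.6 and 20.04 CPM (0.93) and 0 were past 1.5-fold, and of 2 other angiopoietin-type genes, Angpt1 was 48.4 and 34.9 CPM (1.39). In the BMP, activin and TGF-beta list Bmper was the 1 gene of 15 past 1.5-fold, with a median of 0.04. Ror1, a WNT receptor, was 80.8 and 52.6 CPM (1.53) and the 1 gene of 18 in the WNT list. Aldh1a1, a retinoic acid enzyme, was 13.6 and 8.49 CPM (1.60) and the 1 gene of 7 in its list. Nlgn1, a neuroligin, at 134 and 87.6 CPM (1.53), and Pcdh9 were the 2 of 27 in the axon guidance and adhesion list.

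Ion channels and neurotransmitter receptors had the highest median of the 27 lists, 0.38 over 11 genes, although 0 of 11 were past 1.5-fold. Among all tested genes 0.916% were higher and 0.5% lower. Kcnd2, a potassium channel and the most abundant of them, was 1111 CPM in the chosen cells and 827 CPM in the other stroma (1.34). Kcnt2 and Cacna1d, a potassium and a calcium channel, had ratios of 1.498 and 1.49, Gria3, a glutamate receptor, at 1.41, Kcnma1 at 1.40 and Kcnip4, a channel partner, at 0.95. Decidualization genes had 0 of 8 past 1.5-fold and a median of -0.04, and Bmp2, which attachment induces in stroma, was 29.6 and 28.9 CPM (1.02). Cell cycle genes had 0 of 12 and a median of 0.06, Hox genes 0 of 9 and 0.07, and collagens 0 of 18 and 0.08. The 20 genes that cell dissociation can induce had 0 past 1.5-fold and a median of -0.09.

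Levels along the whole score were read in 10 bins of the control stromal cells (334 cells in the lowest and 333 in the highest), with the score from one random part of the UMIs and the levels from the remaining part. From the lowest to the highest bin Adarb2 went from 40.1 to 1011 CPM, Rorb from 152 to 1001 CPM and Angptl7 from 37.1 to 560.4 CPM. Ppfia2 went from 205 to 576 CPM, Bmper from 40.9 to 119.6, Acss3 from 63.3 to 147, Arhgef28 from 11.6 to 68.6 and Antxr2 from 98.0 to 225 CPM. Ramp3 went the other way, from 334 to 126 CPM, as did Ckb from 232 to 84.0 and Eln from 155 to 50.4 CPM. Robo2, which the bins did not exclude, was 336 CPM in the lowest and 404 CPM in the highest bin, and Pgr 180 and 268 CPM. Median depth was 7740 UMIs in the lowest bin and 8999 in the highest.

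**Figure D4:**
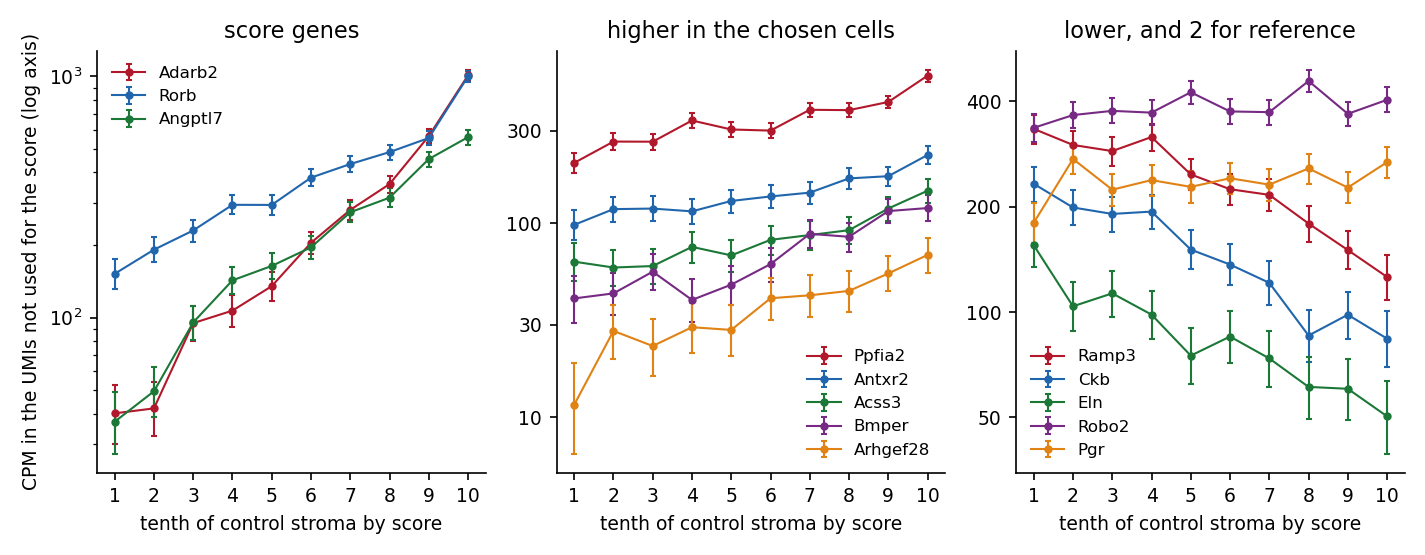
CPM (log axes) against the bin of control stroma by score, from 1 (lowest) to 10 (highest), with levels from UMIs that the score did not use and exact Poisson 95% intervals as bars. The score genes, Ppfia2, Antxr2, Acss3, Bmper and Arhgef28 are higher in bin 10 than in bin 1, Ramp3, Ckb and Eln are lower, while Robo2 stays between 336 and 457 CPM and Pgr between 180 and 274 CPM.

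The chosen cells differed among themselves by the gene that led them. Bmper was 142 CPM in the 224 cells led by Adarb2 (126 to 159), 71.0 CPM in the 177 led by Rorb (59.1 to 84.7) and 74.6 CPM in the 138 led by Angptl7 (60.8 to 90.7). Arhgef28 was 84.2, 47.0 and 39.9 CPM in the same order, Lin7a 137, 76.2 and 53.2 CPM (1 chosen cell held 77 of its UMIs), Acss3 137, 86.5 and 82.7 CPM, and Ppfia2 492, 273 and 338 CPM. For each of these genes the interval of the cells led by Adarb2 lay above those of the cells led by Rorb or Angptl7. These intervals leave out the spread between cells, and Lin7a was not read by leading gene without its highest cell. As summed levels, these 5 genes were highest where Adarb2 led.

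Cells led by Rorb had another profile. Esr1 was 808 CPM in them (766 to 851), 684 CPM where Adarb2 led and 490.5 CPM where Angptl7 led. Sgcz was 36.7 CPM in cells led by Rorb, close to the other stroma, 7.01 CPM in cells led by Adarb2 and 18.5 CPM in cells led by Angptl7. Hhip was 28.6, 22.0 and 11.1 CPM in cells led by Rorb, Adarb2 and Angptl7, with overlapping intervals for the first pair. Pgr was 173 CPM where Angptl7 led (151 to 196), below 247 CPM where Rorb led and 263 CPM where Adarb2 led. Counted separately against the other stroma, the cells led by Adarb2 had 460 genes higher and 183 lower, of 8457 tested. Those led by Rorb had 355 and 178 of 8388, and those led by Angptl7 158 and 336 of 8313. This setting was added after the data were seen and rests on fewer cells, which adds noise to such counts.

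**Figure D5:**
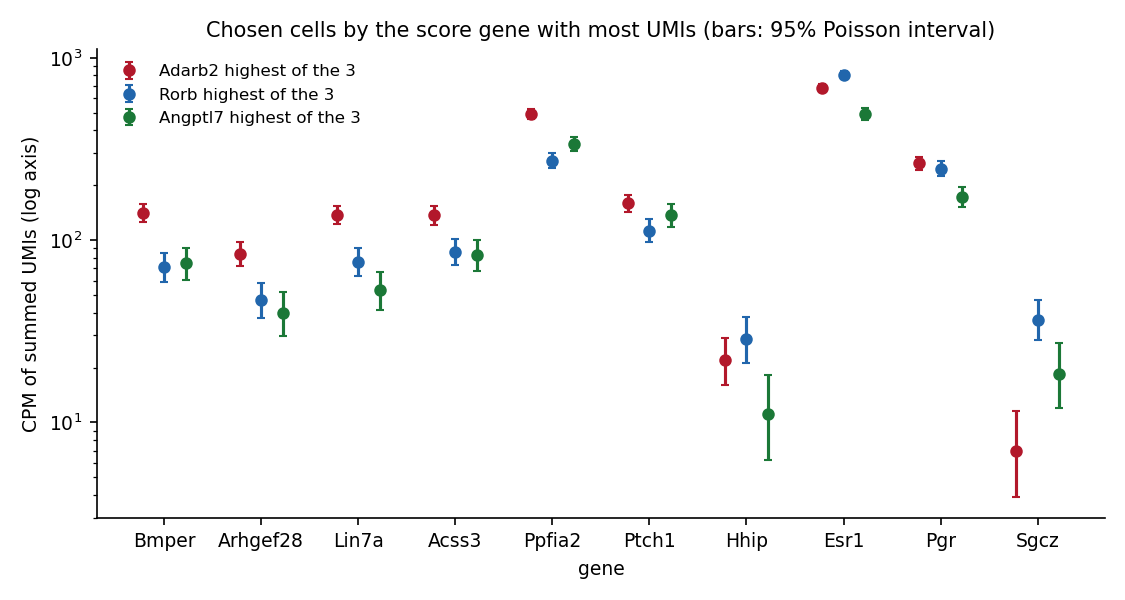
CPM of summed UMIs (log axis) of 10 genes in the chosen cells, split by the score gene with the most UMIs in the cell, with exact Poisson 95% intervals as bars. Bmper, Arhgef28, Lin7a, Acss3 and Ppfia2 are highest in the 224 cells led by Adarb2, Esr1 and Sgcz in the 177 led by Rorb, and Pgr is lowest in the 138 led by Angptl7.

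Control stroma was also clustered with the rule genes left out, to see where the chosen cells fell, and the 8 clusters go by number. Cluster 2, with 913 cells led by Mirg, C1qtnf7 and Pde10a, held 202 chosen cells (36.4% of them), and cluster 1, with 771 cells, held 189 (34.1%). Cluster 1 had the highest share of cells at or above the score limit, 41.8% (38.3 to 45.3%), and its leading genes were Bmper, Adarb2, Acss3, Ccbe1, Map2k6 and Arhgef28. Adarb2, listed there though it was not used to cluster, was 571 CPM in cluster 1, against 140 CPM in cluster 3. Cluster 4, 548 cells led by Ptpro, Kcnip4 and Gatm, held 327 of the Robo2 type and 15 chosen cells (2.74% of the cluster). Cluster 5, 107 cells led by mitosis genes such as Top2a, held 21 chosen cells (19.6%, against 16.6% of all control stroma). Cluster 6, 49 cells led by Jchain, Igkc, Igha, Higd1b and Rgs5, held 1 chosen cell, and cluster 7, 15 cells led by Agtr2 and Cpz, held 0. No cluster was made up mainly of chosen cells, but the percentile limit and the exclusions hold such shares down. In cluster 1, 322 cells were at or above the limit and 189 (24.5% of the cluster) were chosen cells.

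The Robo2 type differed from the chosen cells in far more genes than the other stroma did. Of 8419 genes tested, 693 (8.23%) were at least 1.5-fold higher in the chosen cells and 364 (4.32%) lower, with a median log2 ratio of -0.03. Since cells high for the Robo2 genes were left out of the chosen cells, the contrast is a description. Hhip was 20.8 CPM in the chosen cells and 1.53 CPM in the Robo2 type, 13.6-fold higher (6.93 to 30.6). Chrm3, a muscarinic acetylcholine receptor, was 58.8 and 6.46 CPM (9.11-fold), Nkain2 148 and 26.2 CPM (5.65-fold), and Pdpn, podoplanin, a surface protein of fibroblasts, 40.7 and 6.46 CPM (6.31-fold). Ly6a, known as Sca-1, was 188 and 39.7 CPM (4.72-fold), and C1qtnf7, a secreted C1q-related protein, 23.6 and 3.57 CPM (6.62-fold). Of these genes, only Hhip was also among those named as higher against the other stroma.

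Lower in the chosen cells than in the Robo2 type were Ptpro, a receptor phosphatase (3.72 and 40.1 CPM, 10.8-fold), Gatm, the first enzyme of creatine synthesis (6.51 and 51.1 CPM, 7.85-fold), Nkd2, a WNT inhibitor (4.28 and 33.0 CPM, 7.70-fold) and Prlr, the prolactin receptor (13.0 and 81.5 CPM, 6.26-fold). Serinc2 was 14.7 and 86.1 CPM, Slco3a1, a transporter, 5.95 and 37.2 CPM, St3gal5, a ganglioside synthase, 4.28 and 25.5 CPM, and Col26a1, a collagen, 7.44 and 39.1 CPM. The other stroma was low in these genes as well, with Ptpro at 5.55 CPM, Prlr at 15.2 CPM, Serinc2 at 20.2 CPM and St3gal5 at 9.99 CPM.

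By list, against 8.23% of all genes higher and 4.32% lower, 18 of 20 dissociation stress genes were higher in the chosen cells than in the Robo2 type and 0 lower, with a median log2 ratio of 0.99 against -0.03 over all genes. Fos, an immediate early gene, was 219 and 90.9 CPM, and Hspa1a, a heat shock gene, 1474 and 697 CPM. The part of this difference in the other lists was not tested. Chemokines and cytokines had 6 of 10 higher and 3 lower (median 1.03), with Ccl2 at 31.6 and 3.91 CPM and Ccl7 at 40.2 and 6.46 CPM, both chemokines for monocytes, while Cxcl14 was lower, at 50.4 and 133 CPM. The BMP, activin and TGF-beta list had 7 of 15 higher and 3 lower (median 0.57), with Id3, a BMP target, at 388 and 120 CPM and Bmper at 101 and 27.7 CPM. Against the other stroma, 0 of 20 dissociation stress genes and 0 of 11 chemokines and cytokines were higher, with 1 of the latter lower. The BMP list had 1 of 15 higher there and 0 lower, against 0.916% of all genes higher and 0.5% lower.

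Other lists are read against the same shares over all genes, 8.23% higher and 4.32% lower. Of 8 Hox genes, 0 were higher and 5 lower in the chosen cells (median -0.60), with Hoxa10, which uterine stroma needs to decidualize, at 282 and 488 CPM and Hoxa11 at 121 and 185 CPM. Axon guidance and adhesion had 3 of 24 higher, among them Slit3 at 535 and 201 CPM, and 8 lower, among them Robo1 at 250 and 591 CPM and Cdh11 at 786 and 1305 CPM. The WNT list had 4 of 19 higher, with Rspo3, a WNT enhancer, at 26.0 and 8.66 CPM, and 6 lower, with Wnt5a at 69.2 and 133 CPM and Lef1, a WNT effector, at 22.9 and 67.3 CPM. Matrix glycoproteins had 9 of 30 higher and 2 lower, and matrix proteases and inhibitors 6 of 18 higher and 0 lower. Contractile genes had 4 higher and 0 lower, with Tagln, transgelin, at 59.2 and 12.6 CPM.

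Against the Dpt type, whose high cells were likewise left out of the chosen cells and whose median depth was 7646 UMIs, 573 of 8385 genes (6.83%) were higher in the chosen cells and 270 (3.22%) lower. The Dpt type was chosen partly by genes of the matrix, Dpt and Lum, so the direction of a matrix list is partly set by the rule. Of 31 glycoprotein and proteoglycan genes, 1 was higher in the chosen cells, 11 were lower and 19 passed neither way, with a median log2 ratio of -0.23 against 0.03 over all genes. Axon guidance and adhesion genes had 7 of 24 higher and 2 lower (median 0.43). Bmper was 124.5 CPM in the Dpt type and 101 CPM in the chosen cells, and Hhip 23.7 and 20.8 CPM, so neither was higher in the chosen cells than there. Of the 334 cells of the Dpt type, 89 were themselves at or above the score limit.

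In the library labelled knockout, 123 of 1085 stromal cells passed the same limits, 11.3% (9.51 to 13.4%), against 16.6% in the control. Depth differed, with a median of 3822 UMIs in these cells and 9432 in the control cells. With every cell thinned to 2000 UMIs and 98 and 367 shallower cells left out, the shares were 15.4% of 3207 and 12.5% of 867 stromal cells (14.2 to 16.7% and 10.3 to 14.8%). Thinning matched the UMI number only, and the difference in share was not tested. The limits were percentiles of control stroma, so the control shares were largely set by the rule.

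The 3 genes did not differ alike between the libraries. Over all stromal cells Adarb2 was at 71.3 CPM in the library labelled knockout against 292 CPM in control, 4.09-fold lower (3.64 to 4.61). Angptl7 was at 173 against 234 CPM, 1.35-fold lower (1.25 to 1.46), and Rorb at 437 against 399 CPM, a ratio of 1.09 (1.04 to 1.15). Among the 123 cells past the limits, 9 (7.32%) were led by Adarb2, 86 (69.9%) by Rorb and 22 (17.9%) by Angptl7, against 40.4%, 31.9% and 24.9% in the control. Adarb2 was 204 CPM in these 123 cells, Rorb 1365 CPM and Angptl7 476 CPM. Without Adarb2 in the score the share past the limits was 18.1% in the library labelled knockout, and without Rorb it was 6.54%. In the control, where the limits were set, 537 and 553 of 3340 stromal cells passed under these scores, against 555 with all 3 genes. Without Adarb2 the share was therefore not lower in the library labelled knockout than in the control.

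Between the cells past the limits in each library, 1638 of 8414 genes (19.5%) were higher in the library labelled knockout and 1304 (15.5%) lower, with a median log2 ratio of 0.05. This comparison holds the library, the depth and the genotype together, which cannot be told apart. Between all stromal cells of each library 915 of 8411 genes were higher and 796 lower. Epithelial markers gave 91.9 CPM in the 123 cells past the limits and 15.8 CPM in the chosen control cells, and immune markers 87.8 and 1.86 CPM. In the 123 cells these levels came from 45 and 43 UMIs, with medians of 0 per cell. Of these cells, 5 had epithelial and 2 had immune markers at 5 or more per 10000 UMIs. The part of these markers in the genes that were higher was not tested.

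Several genes that were higher in the chosen cells than in the other control stroma were lower in the cells past the limits of the library labelled knockout. Arhgef28 had 0 UMIs in its 123 cells, which against a floor of 3 UMIs is at least 9.81-fold lower than in the control. Bmper was 22.5 CPM there and 101 CPM in the chosen control cells, Acss3 24.5 and 106 CPM, Ppfia2 174 and 376 CPM, and Hhip 4.09 CPM, from 2 UMIs, and 20.8 CPM (ratio 0.20, 0.02 to 0.72). Ramp3 and Eln, which were low in the chosen cells of the control, were 601 CPM and 257 CPM in the library labelled knockout. Across its whole stroma Arhgef28 was 3.7 CPM, Bmper 12.3 CPM and Ramp3 652 CPM, so these levels were not limited to the cells past the limits.

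Other genes were named as lower in the library labelled knockout by the same ranking. Kcnd3, a potassium channel, was 169 CPM in the chosen control cells and had 2 UMIs in the library labelled knockout (ratio 0.024, 0.003 to 0.088). Fat3, a giant cadherin, and Cacna1d had 0 UMIs, at least 9.93-fold and 6.83-fold lower. Maob, monoamine oxidase B, was 200.4 and 22.5 CPM (8.92-fold lower), and Wfdc1, a secreted protein, 251 and 32.7 CPM (7.69-fold lower). Vegfd, a growth factor of lymphatic vessels, and Cldn3, a claudin, had 1 UMI each, against 303 and 299 UMIs in the control (ratios 0.036, 0.001 to 0.203, and 0.037, 0.001 to 0.206).

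Named as higher in the library labelled knockout were Casp4, an inflammatory caspase (204 and 9.49 CPM, 21.5-fold), Adgre5, an adhesion receptor (87.8 and 3.35 CPM, 26.2-fold), Mt3, a metallothionein (44.9 and 1.12 CPM, 40.3-fold) and Prap1, a secreted epithelial protein (71.5 and 0.93 CPM, 76.9-fold). Galnt15, a glycosyltransferase, had 19 UMIs against 1 (ratio 209, 33.2 to 8667). Zfp804a had 16 UMIs against 1 (ratio 176, 27.3 to 7367), with 68.8% of them in 1 cell. Ccl5 and Cd52, genes of lymphoid cells, had 12 UMIs each against 0, at least 43.9-fold higher against the floor of 3 UMIs, and came from 2 cells each. By list, against 19.5% of all genes higher and 15.5% lower, 10 of 12 interferon response genes were higher and 0 lower (median log2 ratio 1.38), with Ifi27l2a at 335 and 23.3 CPM, 8 of 11 chemokines and cytokines were higher and 3 lower (1.94), and 10 of 13 cell cycle genes were lower and 1 higher (-1.43). The Hedgehog and stromal progesterone list had 9 of 15 lower and 1 higher (-0.76), with Ptch1 at 47.0 and 137 CPM, and dissociation stress genes 12 of 20 higher and 1 lower (0.72).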

How the data were processed

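Each deposited matrix gives whole-number UMI counts per gene and barcode, and the authors produced it with Cell Ranger (version 7.0.1), per the file headers. The submitters' processing notes also name Seurat, without a version, and build mm39. Per the labels' protocols, tissue was digested with trypsin, a kit removed dead cells, and 10x libraries were made from polyA RNA. Cells were kept, gated and scored as described, with limits set in the control and used in both libraries. No doublet caller entered the main values. UMIs were summed per class and scaled to CPM, and genes with at least 10 CPM over both classes and a ratio of at least 1.5 were counted. Intervals are exact 95% (Poisson, binomial or conditional) and cover counting error only. A level of 0 was compared through a floor of 3 UMIs per class. Named genes were the 15 higher and 15 lower against the other stroma and 8 each in the other contrasts, ranked by the bound nearest 1, leaving out mitochondrial, ribosomal, hemoglobin and unnamed genes, together with members of the gene lists. Clusters used scanpy 1.11.5 with 2000 variable genes, 20 components, 15 neighbours and resolution 0.5. The counting code was tested on simulated data. Members and lists were chosen with earlier results of these data known. Alternatives covered doublets, thinning, filters, scaling, limits and each score gene.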

Additional observations from a re-analysis of the deposited data

How the results depend on the processing

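The counts against the other stroma (77 higher, 42 lower, of 8408 tested) depended most on the settings. They were 338 and 145 above the 90th percentile of the score, 550 and 349 in cells thinned to 2000 UMIs, 176 and 65 for means over cells, and 135 and 98 for cells chosen on one part of the UMIs. They were 17 and 6 of 3247 genes tested with a minimum of 50 CPM. With a minimum of 1 UMI they were 2955 and 4777 of 21532 genes tested. The higher count was 30 without Adarb2 and 116 without Angptl7 in the score, and the lower count 92 without Rorb, 66 against all other stroma and 25 without clusters 6 and 7. In cells led by Adarb2, Rorb and Angptl7 the counts were 460 and 183 of 8457 tested, 355 and 178 of 8388, and 158 and 336 of 8313. Against the Robo2 type (693 and 364 of 8419), 647 genes were lower in thinned cells. The counts there were 243 and 110 of 3274 at 50 CPM and 4730 and 3634 of 19909 at 1 UMI. Between the libraries (1638 and 1304 of 8414) they were 618 and 298 of 3417 at 50 CPM and 3815 and 7952 of 18652 at 1 UMI. Over all stroma they were 915 and 796 of 8411.

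Adarb2 (ratio 6.25), Rorb (3.09) and Angptl7 (3.61) were 4.31, 2.51 and 2.90 in UMIs not used to choose the cells and 9.17, 4.45 and 6.44 in thinned cells. Means over cells gave 7.17 for Adarb2 and 3.23 for Rorb. Without Adarb2 in the score they were 1.54, 3.91 and 4.79, without Rorb 7.88, 1.12 and 5.30, and without Angptl7 7.45, 3.72 and 1.18. With no exclusion 835 cells were chosen. The share past the limits in the library labelled knockout (11.3%) was 18.1%, 6.54% and 14.1% without Adarb2, Rorb or Angptl7. In the control 537, 553 and 545 of 3340 stromal cells passed in the same order.

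Directions turned for 12 of 539 values of the 30 named genes. These were Arhgef6 (0.75 above the 90th percentile, 0.89 without Angptl7, 0.81 in cells led by Adarb2), Frk (0.94 above the 90th percentile), Hs3st4 (0.97) and Sgcz (1.14) in thinned cells, Acta2 (1.15 on the remaining UMIs), Pdzd2 (1.09 without Adarb2), Pcdh9 (0.96 in cells led by Angptl7) and Igkc (1.07), Igha (1.08) and Rgs5 (1.39) without clusters 6 and 7. Of 191 values against the Robo2 type and 75 between the libraries, 0 turned. Genes at 0 UMIs in 1 class have a bound and no ratio and were not compared across settings.

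Of 241 list medians, 33, in 17 lists, had another sign than as reported, and 15 lay outside the order-statistic interval of the reported median. Nuclear receptors (0.11) were 0.23 thinned, -0.021 without Rorb and 0.20 without Angptl7, and RNA editing enzymes (-0.11) were 0.41 thinned and 0.13 on the remaining UMIs. Angiopoietins (0.21) were -0.15 at 1 UMI, and prostaglandins (-0.17) 0.10 thinned. BMP (0.04) was 0.17 thinned, 0.22 against all other stroma and -0.10 without Rorb. Cell cycle (0.06) was -0.15 at 1 UMI and -0.24 thinned, and dissociation stress (-0.09) -0.18 thinned, 0.21 against all other stroma and -0.30 without Rorb. Fewer UMIs or cells and lower filters add noise by construction, and otherwise the cause was not tested. Settings by cluster or leading gene were added after seeing the data. No paired analysis was possible because each genotype had 1 library.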
